A study of Rattus norvegicus with 17 samples.

Results

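The livers described here came from the 5 control animals of a 17-array rat study, the 5 arrays labelled as 0 mg/kg. They were male Harlan Sprague-Dawley rats, an outbred stock, that received corn oil alone by oral gavage on 4 consecutive days, and pieces of the left liver lobe were taken on day 5. Corn oil was the carrier of isopropylated phenol phosphate, a flame retardant and plasticizer that the other 12 rats received, and those 12 arrays were not used. RNA was extracted from 1 tissue sample per rat and hybridised to 1 array, so the spread between rats holds animal and array differences together. The labels give no age, and every rat had swallowed oil, so a liver without oil was not measured. With 1 group there was no comparison between conditions and no test, and all rankings below are descriptions of these 5 rats.

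The liver is mostly hepatocytes, which secrete most plasma proteins, make bile acids, urea, glucose and lipids, and break down drugs and steroids with cytochrome P450 and conjugating enzymes. In rats many of these enzymes differ between males and females under control of the pattern of growth hormone release. The rest of the tissue consists of Kupffer cells, which are resident macrophages, sinusoidal endothelium, stellate cells and bile duct cells. Genes that answer to feeding, glucocorticoids, amino acid supply, daily time and interferon are known to change quickly in this tissue.

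Each array reported 31099 probe sets as log2 signals that the authors made with RMA, and a difference of 1 is therefore a doubling. The 14217 genes with a symbol of their own were each represented by the probe set with the highest mean over the 5 rats. The 5 arrays were close, with array medians between 6.35 and 6.38 and correlations across genes of 0.994 to 0.995 for every pair, a description in which genes are not independent. The 3′ minus 5′ difference, a measure of RNA integrity, was 1.13 to 1.56 for the GAPDH control, largest in rats 2 and 3, and 2.29 to 2.90 for the actin control, largest in rats 2 and 4. Rat 4 had the strongest 5S ribosomal RNA control signal, 9.33 against 7.31 to 7.91 in the others. The number of arrays limits the precision: an SD from 5 rats has a 95% interval from 0.599 to 2.87 times its value if the values are normally distributed.

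The labelled tissue and sex were set against their markers. Of 12 hepatocyte markers, 11 were measured and all 11 had a mean of at least 8, with a median of 14.21. Kupffer cell markers came next, with 10 of 11 measured at a mean of at least 8 and a median of 9.96, led by Clec4f at 11.74, a lectin receptor of these cells. Endothelial markers had 6 of 9 at this level and stellate cell markers 5 of 14. No measured marker of lymphocytes (17), neutrophils (7) or mesothelium (5) had a mean of at least 8. Red cell markers were led by Hbb, a globin chain, at 13.27, and of pancreatic acinar markers 1 of 14 had a mean of at least 8. The Y-linked genes Eif2s3y (9.54 ± 0.19, SD, n = 5) and Uty (8.61 ± 0.15) gave clear signals, whereas Xist was at 4.06 ± 0.09. These sex-linked genes were named after their values were seen.

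A mean of at least 8 was reached by 5951 of 14217 genes, or 41.9%. The genes next to this limit were Kat6a, Arhgef10l and Rrs1-ps9 just inside and Wrap73, Gfra3 and Eif2ak4 just outside. As a view of the background, 30 genes known from pancreas, brain, heart, germ cells and other organs had a median of 5.52 and a highest mean of 7.85. Of 32 chemosensory receptor and hair keratin-associated genes, 1 passed the limit, Olr59 at 9.25, and their median was 4.79. The limit of 8 therefore lay above all 30 genes known from other organs, and genes under it were not sorted into expressed and absent.

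Genes of secreted plasma proteins held the top of the ranking. Albumin, Alb, the main protein of plasma, had the highest mean, 15.34 ± 0.004 (SD, n = 5), and ranked 1 among all probe sets on each of the 5 arrays. Apoc3, an apolipoprotein of triglyceride-rich particles, came next at 14.93 ± 0.019. The mitochondrial COX2 (14.93 ± 0.024) and the urinary protein gene Rup2 (14.92 ± 0.033) followed. The vitamin D carrier Gc (14.91), the thyroid hormone and retinol carrier partner Ttr (14.88) and the protease inhibitor Serpina1 (14.85) were at ranks 5 to 7. These are ranks of signal, which depends on the probes as well as on the amount of RNA, and they do not show which transcript was the most abundant.

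Of the 30 genes with the highest mean, 12 were on the list of secreted plasma proteins and 4 on that of apolipoproteins. The fibrinogen chains Fga (14.76), Fgg (14.73) and Fgb (14.57), which form the clot, all lay there, as did complement C3 (14.83), the hemoglobin-binding Hp (14.72), the fetuins Ahsg (14.76) and Fetub (14.45), and the retinol carrier Rbp4 (14.68). The lipid carriers Apoe (14.74), Apoc1 (14.64) and Apob (14.40) were members too, and Apob closed the list at rank 30. Enzymes among the 30 included the microsomal glutathione transferase Mgst1 (14.61), the steroid and drug hydroxylase Cyp3a2 (14.54), the carbonic anhydrase Car3 (14.54) and the mitochondrial COX1 (14.49). The fatty acid carrier Fabp1 (14.52), the selenium transport protein Selenop (14.50) and the ribosomal protein Rps29 (14.44) were also among the 30.

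**Figure D1:**
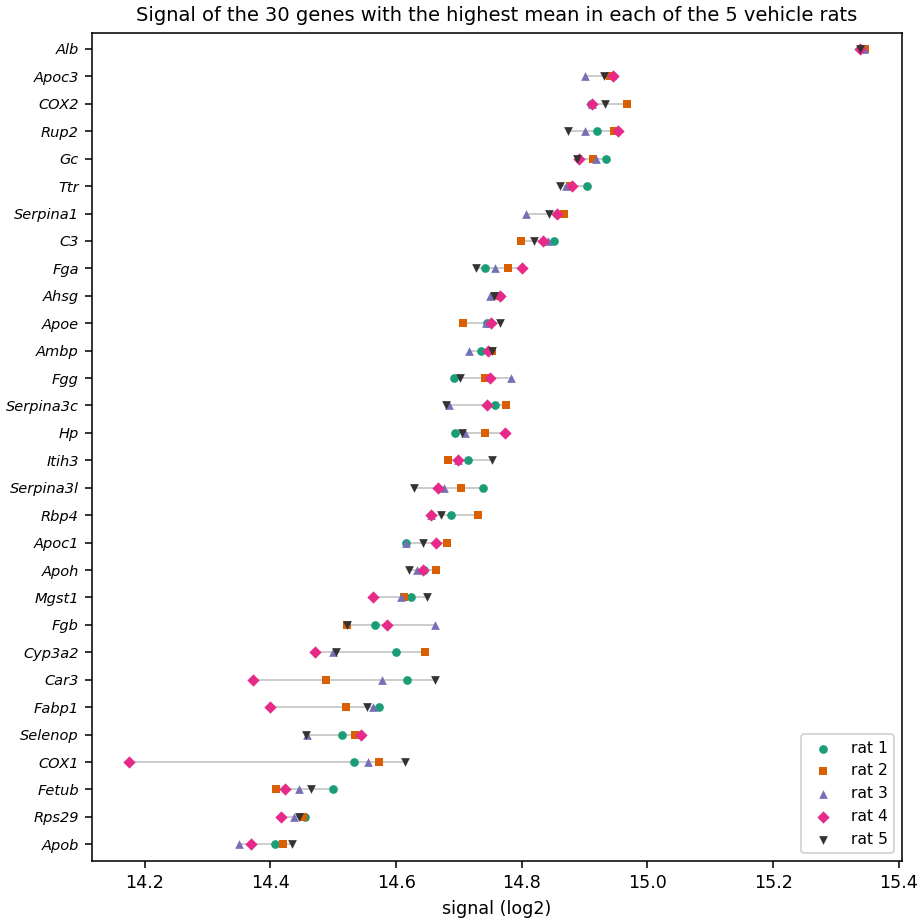
Signal (log2, x axis) of the 30 genes with the highest mean in each of 5 vehicle rats, in order of the mean. Each symbol is 1 rat and the grey line joins the lowest and the highest, and COX1 is the gene with the widest line, from 14.18 in rat 4 to 14.61 in rat 5.

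The rats hardly differed in these genes. Alb was 15.34, 15.35, 15.34, 15.34 and 15.34 in rats 1 to 5, a range of 1.01-fold. Quantile normalization gives probes of equal rank the same value on every array, which can narrow differences at the top. Its part in the small spread of these genes was not tested. Alb had another probe set, at a mean of 15.16, and its SD was 0.018, against 0.004. COX1 was the exception among the 30, with values of 14.53, 14.57, 14.56, 14.18 and 14.61 in rats 1 to 5. Its range was 1.36-fold, with rat 4 below the other 4 rats, and its SD was 0.18, and 0.034 without rat 4.

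The promoters of the genes with the highest mean were searched for GTTAAT, letters that form part of the known binding site of HNF1, a liver transcription factor, on both strands in the 250 bases before the RefSeq start (GRCr8). RefSeq promoters were found for 21 of the 30 genes, and 7 of the 21 (33.3%) held the letters, against 6.46% of all 27457 promoters and 4.49% of the 5080 promoters of genes with a mean of at least 8. The genes were Alb, Rup2, Gc, Fga, Apoc1, Fgb and Fabp1. Of the lists described below, GTTAAT was also found in 3 of 15 interferon promoters (20%) and 2 of 10 glucocorticoid promoters (20%). It was found in 0 of 13 promoters of the amino acid response. A match is a description of letters and not of binding, which was not measured. Alb, Fgb and Rup2 are printed below, 5′ to 3′ on the strand of the gene, because they stand for plasma, clotting and urinary proteins, with GTTAAT or its complement ATTAAC in capitals. The windows are chr14:17906980-17907229 for Alb, chr2:170700876-170701125 for Fgb and chr8:43551457-43551706 for Rup2, all on the minus strand.
Alb: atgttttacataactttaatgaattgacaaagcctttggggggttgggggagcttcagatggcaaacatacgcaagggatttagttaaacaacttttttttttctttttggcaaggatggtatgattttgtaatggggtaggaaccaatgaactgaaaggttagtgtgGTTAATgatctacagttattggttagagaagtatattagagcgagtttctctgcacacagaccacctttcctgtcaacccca
Fgb: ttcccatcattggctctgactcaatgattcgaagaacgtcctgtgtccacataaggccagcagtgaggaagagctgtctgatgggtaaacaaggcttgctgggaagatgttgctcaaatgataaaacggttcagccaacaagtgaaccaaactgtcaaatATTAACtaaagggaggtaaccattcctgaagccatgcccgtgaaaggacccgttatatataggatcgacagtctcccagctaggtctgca
Rup2: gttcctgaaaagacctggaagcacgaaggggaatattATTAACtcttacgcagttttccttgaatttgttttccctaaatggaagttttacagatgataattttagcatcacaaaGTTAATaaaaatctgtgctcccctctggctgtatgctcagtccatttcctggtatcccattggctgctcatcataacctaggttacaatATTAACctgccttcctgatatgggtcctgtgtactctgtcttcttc
The match lay 82 bases before the start in Alb and 90 in Fgb, and Rup2 held 3 matches between 213 and 46 bases before the start.

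Other functional groups could be placed in this ranking by the medians of their members. Among 17 secreted plasma proteins measured the median was 14.71, and the lowest lay at 14.22. The 41 cytosolic ribosomal proteins had a median of 13.29, the 49 subunits of oxidative phosphorylation 12.37, the 26 genes of the urea cycle and amino acid catabolism 12.29, and the 35 P450 enzymes 11.86. The median of all 14217 genes was 7.497. Of the 9 male-predominant genes measured, all lay at 12.92 or above, among them the steroid hydroxylases Cyp2c13 (14.23), Cyp2c11 (14.15) and Cyp2a2 (13.16). Of 8 female-predominant genes, 4 had a mean of at least 8, from the receptor Prlr at 8.51 to the hydroxylase Cyp2c7 at 14.15, and the lowest was the sulfotransferase Sult2a1 at 3.86. P450 and other enzyme families have near-identical copies, and the probe sets of one may also bind another.

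Transcription factors of the hepatocyte lay far lower in signal than its products. Of 30 measured, 22 had a mean of at least 8, led by Xbp1 (13.09), a factor of secretory capacity, Creb3l3 (12.63) and Hnf4a (12.55), a nuclear receptor needed for hepatocyte identity. Cebpb (11.30) and Cebpa (11.27), which drive metabolic and acute phase genes, lay close together. The glucocorticoid receptor Nr3c1 was at 9.78, and the xenobiotic receptors Nr1i2 and Nr1i3 at 9.90 and 8.79. The fatty acid sensor Ppara was at 6.03, within the range of the 30 genes known from other organs, while 18 of 22 of its target genes had a mean of at least 8.

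Most genes differed little between the 5 rats. Among the 5951 genes with a mean of at least 8 the median SD was 0.115, with quartiles of 0.0811 and 0.161, and the median range from the lowest to the highest rat was 1.22-fold. The spread became smaller towards the top of the ranking. The median SD was 0.119 among the 3893 genes with means from 8 to 10, 0.114 among the 1533 from 10 to 12, 0.0944 among the 297 from 12 to 13, 0.0712 among the 169 from 13 to 14 and 0.0377 among the 59 from 14. An SD of at least 0.5 was found in 80 genes (1.34%) and an SD of at least 1 in 6 genes (0.101%). The genes just inside an SD of 0.5 were Abcg5, Lbp and Rtp4 (0.505, 0.505 and 0.504) and those just outside were Tob2, Gbp7 and Slc25a30 (0.498, 0.493 and 0.490).

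**Figure D2:**
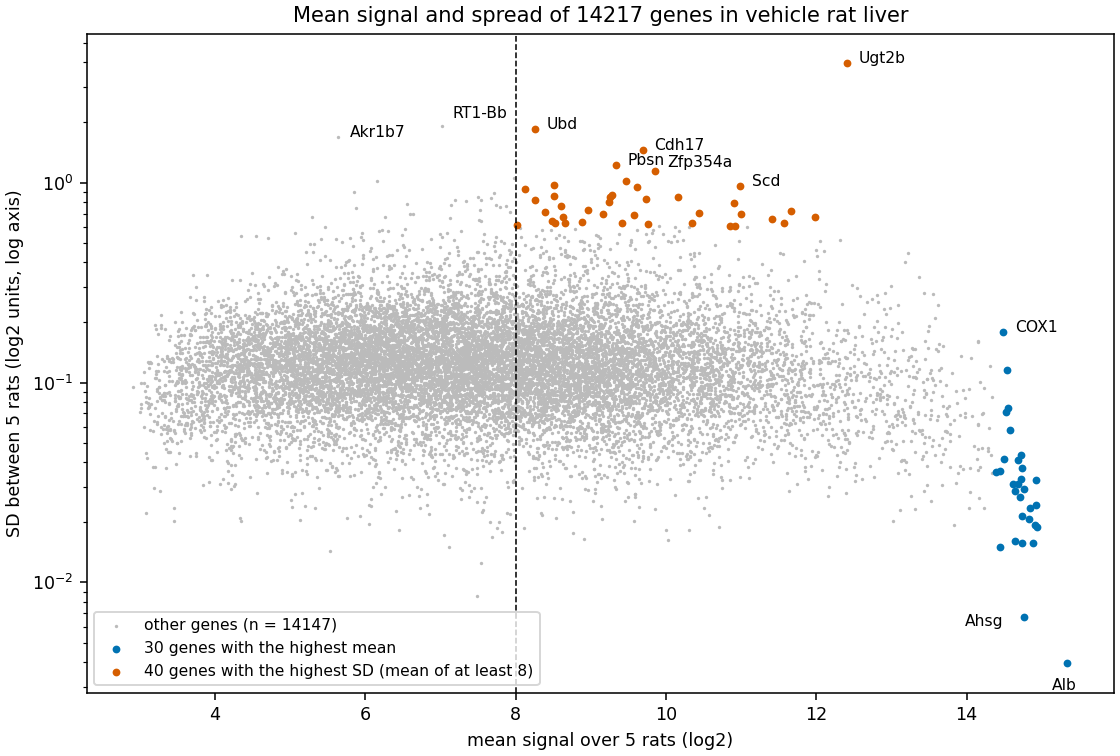
SD between the 5 vehicle rats (log2 units, log axis) against the mean signal (log2) of 14217 genes, 1 point per gene. The dashed line marks the mean of 8, orange points are the 40 genes with the highest SD above it, blue points the 30 with the highest mean, and the blue points except COX1, Car3, Cyp3a2, Fabp1 and Fgb lie under an SD of 0.05.

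Ugt2b, a UDP-glucuronosyltransferase gene whose family conjugates steroids and drugs, was the most variable gene. Its signals were 5.36, 14.18, 13.87, 14.38 and 14.23 in rats 1 to 5, and its SD was 3.94. Rat 1 was under the median of the 30 genes known from other organs and the other 4 rats among the highest signals of the array. Without rat 1 the SD was 0.21. The other probe set of the gene gave 5.27, 11.11, 10.72, 11.82 and 11.74, so that rat 1 stood apart in both. Other members of the family did not share this pattern. Ugt2b35 was 13.74 in rat 1 and 13.75 to 13.86 in the others, Ugt2b15 was 12.97 in rat 1 and 12.90 to 13.27 in the others, and Ugt2b10 was 11.21 against 10.87 to 11.26. Ugt2b1 was 12.20 in rat 1 and 12.25 to 12.89 in the others. The values of these 4 family members were looked up after Ugt2b had been seen.

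The other 5 genes with an SD of at least 1 split the rats in different ways. Ubd, which encodes a ubiquitin-like protein induced by inflammatory cytokines, was 6.21, 6.33, 8.95, 9.76 and 10.01 in rats 1 to 5 (SD 1.85). Rats 1 and 2 were low and rats 3, 4 and 5 high, with a gap of more than 2 log2 units between them. Cdh17, a cadherin of liver and intestine, was 10.80, 10.15, 7.16, 9.91 and 10.44 (SD 1.45), with rat 3 alone low, and its SD without rat 3 was 0.38. Pbsn, probasin, a lipocalin best known from the prostate, was 10.76, 10.47, 7.99, 8.48 and 8.96 (SD 1.22), so that rats 1 and 2 lay above the other 3. Zfp354a, a zinc finger protein, ran from 8.55 in rat 5 to 11.34 in rat 4 without a clear break (SD 1.14). Rgs16, a regulator of G protein signalling, was 8.39, 8.79, 9.92, 10.98 and 9.24 (SD 1.02), highest in rat 4, and 0.66 without rat 4.

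**Figure D3:**
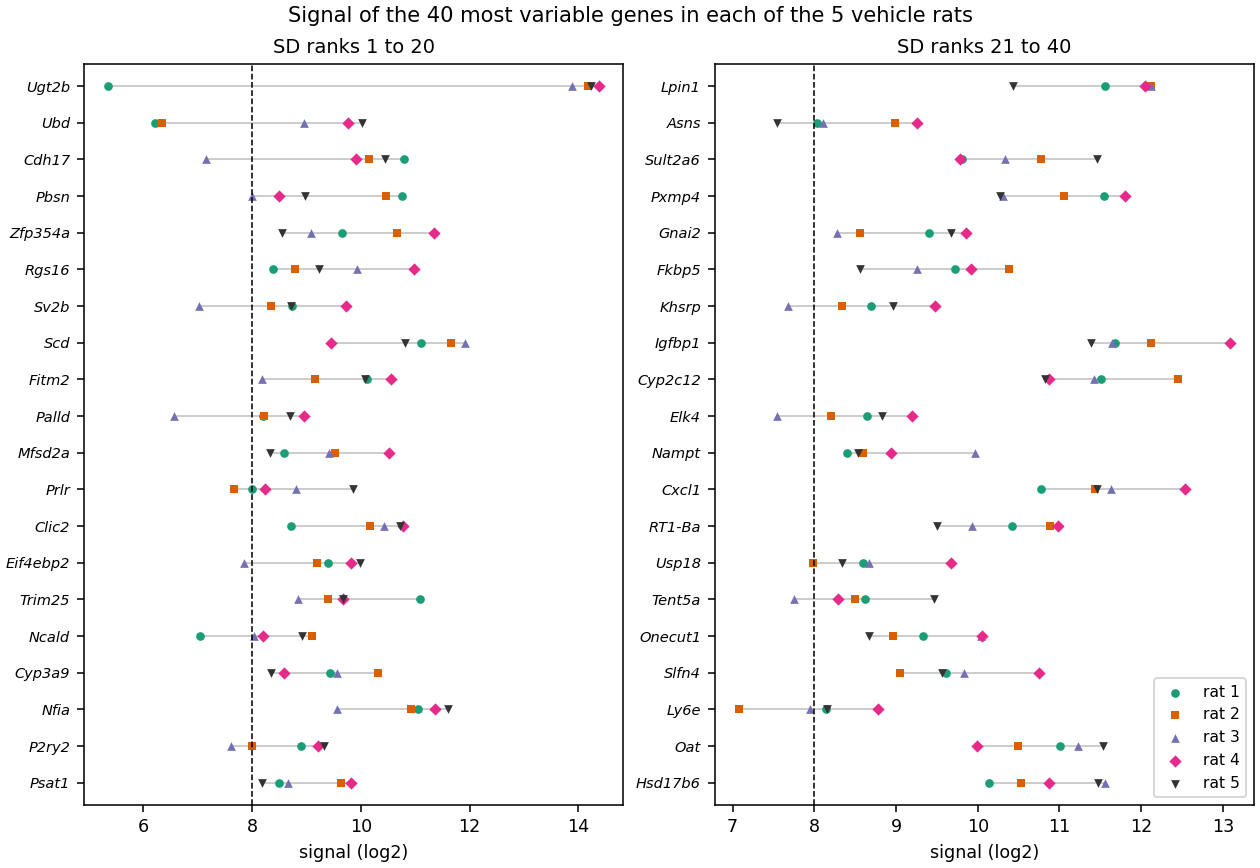
Signal (log2, x axis) of the 40 genes with the highest SD among genes with a mean of at least 8, in order of the SD, in each of 5 vehicle rats. Each symbol is 1 rat, the grey line joins the lowest and the highest, and the dashed line marks a signal of 8; rat 3 is the lowest point in many of the left panel's genes and rat 4 is often the highest.

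Lipid genes formed a part of the next ranks. Scd, the desaturase that makes monounsaturated fatty acids, was 11.11, 11.66, 11.91, 9.45 and 10.81 in rats 1 to 5 (SD 0.96). Rat 4 was low, and without it the SD was 0.50. Lpin1, a phosphatidate phosphatase that is also known as a coactivator, was 11.55, 12.12, 12.13, 12.05 and 10.44 (SD 0.72), low in rat 5, and 0.27 without rat 5. The other probe set of Lpin1 had an SD of 0.62 and was also lowest in rat 5. Fitm2, which takes part in lipid droplet formation, was 10.11, 9.15, 8.18, 10.54 and 10.07 (SD 0.95, and 0.58 without rat 3). Its other probe set did not show this, with values from 9.17 to 9.46 and an SD of 0.11. Mfsd2a, a transporter of lysophosphatidylcholine, was 8.58, 9.53, 9.42, 10.52 and 8.33 (SD 0.86).

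The list of fatty acid synthesis genes, to which Scd and Lpin1 belong, had 13 members with a mean of at least 8. Rat 4 was the lowest rat in 9 of the 13 and rat 3 the highest in 9, whereas over all 5951 genes these rats were lowest in 29.9% and highest in 32.0%. The mean deviation of the members from their 5-rat means was -0.05, 0.11, 0.25, -0.29 and -0.03 in rats 1 to 5. Me1, which supplies NADPH, was 9.16, 9.34, 9.46, 8.36 and 8.92 in rats 1 to 5, and Acly, which supplies acetyl-CoA, was 11.46, 11.53, 11.88, 11.38 and 11.73. PPARA targets, genes of fatty acid oxidation and transport, were highest in rat 2 in 11 of 18 and lowest in rat 4 in 10 of 18, against 21.8% and 29.9% of all genes. The carnitine palmitoyltransferase Cpt1a was 12.14, 12.48, 12.29, 12.08 and 11.64, with rat 5 lowest. Cholesterol synthesis genes were lowest in rat 4 in 12 of 19.

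Enzymes of steroid and drug metabolism were unequal in their spread. Of 31 P450 enzymes with a mean of at least 8, the median SD was 0.13, but 6 (19.4%) had an SD of at least 0.230. An SD of at least 0.5 was found in 3 of the 31. Of 16 conjugation enzymes at this level, 6 (37.5%) had an SD of at least 0.230. Over all 5951 genes, 596 reached 0.230 and 80 (1.34%) reached 0.5. Cyp3a9 was 9.44, 10.31, 9.56, 8.58 and 8.34 in rats 1 to 5 (SD 0.80), and Cyp2c12, a hydroxylase that predominates in females, was 11.51, 12.46, 11.42, 10.87 and 10.82 (SD 0.66, and 0.36 without rat 2). Rat 2 was highest and rats 4 and 5 lowest in both. Cyp7a1, the rate-limiting enzyme of bile acid synthesis, was 10.61, 10.26, 9.70, 10.73 and 9.33 (SD 0.60). Among male-predominant enzymes Cyp2c13 lay between 14.20 and 14.25, while Cyp3a18 was 13.43, 13.18, 12.92, 12.79 and 12.68 (SD 0.30), lower in rats 4 and 5. The sulfotransferase Sult2a6 was 9.81, 10.78, 10.33, 9.79 and 11.46 (SD 0.71), Oat, an ornithine aminotransferase of the pericentral zone, ran from 9.99 in rat 4 to 11.53 in rat 5 (SD 0.61), and the steroid dehydrogenase Hsd17b6 ran from 10.13 in rat 1 to 11.55 in rat 3 (SD 0.61).

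Genes that answer to glucocorticoids held the highest median SD of the pathway lists with at least 5 such members, 0.42 over 10 genes, against 0.115 for all genes with a mean of at least 8. Of the 10, 9 had an SD of at least 0.230, which 596 of all 5951 genes reached, and rat 5 was the lowest rat in 8 of them, against 23.0% of all 5951 genes. Fkbp5, a cochaperone of the glucocorticoid receptor, was 9.72, 10.39, 9.26, 9.91 and 8.56 in rats 1 to 5 (SD 0.69), and its other probe set had an SD of 0.49 with the same highest and lowest rat. Klf9 (11.85, 12.06, 11.73, 12.31 and 11.23), a transcription factor, and Cdkn1a (10.95, 11.33, 10.92, 11.49 and 10.16), a cell cycle inhibitor, had the same order at both ends, with rat 4 highest and rat 5 lowest. The gluconeogenic Pck1 did as well, at 13.49, 13.72, 13.41, 13.91 and 13.20. The metallothionein Mt2A was 13.02, 13.21, 13.71, 13.56 and 12.60, so that rat 3 and not rat 4 was highest. The members' mean deviation was -0.02, 0.22, 0.05, 0.22 and -0.47 in rats 1 to 5. The SD of Cdkn1a was 0.51, and 0.28 without rat 5. Igfbp1, a fasting-induced binding protein of insulin-like growth factors, was 11.68, 12.12, 11.65, 13.08 and 11.38 (SD 0.67, and 0.31 without rat 4).

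Genes of the amino acid response were highest in rats 2 and 4 in the mean of their members. This pathway, run by the factor ATF4, raises serine and asparagine synthesis when amino acids are short. Psat1, of serine synthesis, was 8.49, 9.63, 8.66, 9.82 and 8.19 in rats 1 to 5 (SD 0.73), and Asns, asparagine synthetase, was 8.03, 8.99, 8.11, 9.25 and 7.54 (SD 0.71). Phgdh, the enzyme before Psat1, was 9.12, 9.63, 8.70, 9.55 and 8.36 (SD 0.55). In all 3 genes rats 2 and 4 were the highest and rat 5 the lowest. Over the 14 members with a mean of at least 8, the mean deviation was -0.18, 0.25, -0.06, 0.24 and -0.26. An SD of at least 0.230 was found in 8 of the 14, against 596 of all 5951 genes. Other members of the pathway were steady: Cth, a cysteine-forming enzyme, had an SD of 0.06 and Shmt2, of serine to glycine conversion, 0.06. Atf4 itself was lowest in rat 2, at 11.26, 11.19, 11.68, 11.60 and 11.57.

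Promoters of these 14 genes were searched for TGATGNAA, the known composite site of C/EBP and ATF factors, on both strands. Of 13 with a RefSeq promoter, 3 held it (23.1%), namely Trib3, Fgf21 and Nupr1, against 3.27% of all promoters. Trib3, a pseudokinase, was 8.38, 9.21, 8.59, 8.82 and 7.95 in rats 1 to 5, and Nupr1, a stress-induced chromatin protein, was 10.76, 11.43, 10.65, 11.29 and 10.98. Rat 2 was highest in both, as it was in 6 of the 14 members, against 21.8% of all genes. Psat1, Asns and Phgdh were not among the 3 genes with the letters. A link between the letters and the order of the rats was not tested. The windows of Trib3 and Nupr1, chr3:161275534-161275783 and chr1:190645902-190646151 on the minus strand, are printed with the complement of the letters in capitals. Fgf21 is not printed.
Trib3: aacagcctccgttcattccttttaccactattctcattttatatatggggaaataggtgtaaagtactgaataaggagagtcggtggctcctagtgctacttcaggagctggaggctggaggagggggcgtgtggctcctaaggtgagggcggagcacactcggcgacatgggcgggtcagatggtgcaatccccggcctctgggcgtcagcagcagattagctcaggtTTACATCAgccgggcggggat
Nupr1: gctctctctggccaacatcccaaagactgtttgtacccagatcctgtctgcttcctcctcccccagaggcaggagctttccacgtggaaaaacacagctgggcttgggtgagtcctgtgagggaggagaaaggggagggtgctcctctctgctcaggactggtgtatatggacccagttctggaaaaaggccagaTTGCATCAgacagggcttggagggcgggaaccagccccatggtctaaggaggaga
The letters began 21 bases before the start in Trib3 and 55 in Nupr1. A glucocorticoid response element was matched in 0 of 10 promoters of the glucocorticoid list and in 0.346% of all promoters, which says only that the letters searched are not in these windows. TATAAA, the letters of the TATA box, was found in 5 of the 13 amino acid response promoters (38.5%), against 13.1% of all promoters.

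Interferon and antigen presentation genes separated rats 2 and 4. Over the 18 members with a mean of at least 8 the mean deviation was 0.06, -0.31, 0.02, 0.29 and -0.06 in rats 1 to 5, rat 4 was the highest rat in 12 of 18 and rat 2 the lowest in 12 of 18, against 20.1% and 16.8% of all genes. Usp18, which removes the ubiquitin-like ISG15 from proteins, was 8.60, 7.99, 8.67, 9.67 and 8.34 (SD 0.63, and 0.31 without rat 4). Isg15 was 8.43, 7.63, 8.26, 9.11 and 8.89 (SD 0.58), and Irf7, a transcription factor of the response, was 9.08, 8.51, 9.07, 9.69 and 9.05 (SD 0.42). Psmb8, an immunoproteasome subunit, was 10.45, 9.34, 10.56, 10.25 and 10.56 (SD 0.51), with rat 2 alone low, and 0.15 without rat 2. Slfn4, a Schlafen family gene, and Ly6e, a surface protein, are outside that list and were named after their values were seen. Slfn4 was 9.62, 9.05, 9.83, 10.75 and 9.56, and Ly6e was 8.15, 7.08, 7.95, 8.78 and 8.16. Both were also highest in rat 4 and lowest in rat 2. Trim25 and Ubd, likewise outside the list, had another order. Trim25, of antiviral sensing, was highest in rat 1 at 11.09 and lowest in rat 3 at 8.84. The cytokine-induced Ubd was highest in rat 5 at 10.01 and lowest in rat 1 at 6.21. The SD of Slfn4 was 0.62, and 0.33 without rat 4, and that of Ly6e was 0.61, and 0.36 without rat 2. RT1-Ba, the member with the highest SD (0.63), had another order in its chosen probe set. Rat 4 was highest at 10.98, rat 2 next at 10.88 and rat 5 lowest at 9.51. The other probe set of RT1-Ba had a smaller SD and another highest and lowest rat. B2m, the light chain of class I molecules, had an SD of 0.06 at a mean of 14.15.

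Kupffer cell markers had the same lowest rat. Of 10 with a mean of at least 8, rat 2 was the lowest in 8, against 16.8% of all genes. Rats 3 and 4 were the highest in 5 each, against 32.0% and 20.1% of all genes. Of 5 stellate cell markers at this level rat 2 was the lowest in 3. The summed signals of the lymphocyte and neutrophil markers were lowest in rat 2 as well, at 10.18 and 8.71 in log2. The other rats were close, at 10.25 to 10.44 and 8.78 to 9.46, and none of these markers had a mean of at least 8. Other cell types had another order. Of 6 endothelial markers at this level rat 4 was the lowest in 4, against 29.9% of all genes. The 2 bile duct cell markers at this level had their highest mean deviation in rat 2. Clec4f was 11.67, 11.34, 11.93, 12.02 and 11.73 in rats 1 to 5, C1qa, a complement component made by macrophages, was 11.09, 10.47, 10.89, 11.23 and 11.15, and Cd68, a lysosomal marker, was 9.56, 8.91, 9.66, 9.58 and 9.53. The summed linear signal of all 11 measured markers, as log2, was 13.68, 13.36, 13.85, 13.91 and 13.74, and the lowest of them by mean was at 7.92. The 11 hepatocyte markers summed to 17.65 to 17.68. In whole tissue fewer cells of a type and less RNA per cell cannot be told apart. The part of the macrophage signal in the interferon genes was not tested.

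The letters GAAA, any 2 bases and GAAA again, part of an interferon-stimulated response element, were found on either strand in 6 of 15 promoters of the interferon list (40%), against 3.29% of all promoters. The matches may overlap each other. Irf7 and Ifi27, an interferon-induced mitochondrial protein, are printed from that list, with Bst2, an antiviral membrane protein outside the list that was chosen after its values were seen (11.97, 11.40, 11.74, 12.63 and 12.48). Ifi27 was 13.61, 13.17, 13.54, 13.67 and 13.50, and all 3 printed genes had rat 4 highest and rat 2 lowest. Over the 18 list members rat 4 was highest in 12 and rat 2 lowest in 12. Rsad2, Tap1, RT1-S3 and B2m also held the letters and are not printed. A link between the letters and the order of the rats was not tested. The windows of Irf7, Ifi27 and Bst2 are chr1:205800024-205800273 on the minus strand, chr6:128355062-128355311 on the plus strand and chr16:18254968-18255217 on the minus strand, with the letters or their complement in capitals.
Irf7: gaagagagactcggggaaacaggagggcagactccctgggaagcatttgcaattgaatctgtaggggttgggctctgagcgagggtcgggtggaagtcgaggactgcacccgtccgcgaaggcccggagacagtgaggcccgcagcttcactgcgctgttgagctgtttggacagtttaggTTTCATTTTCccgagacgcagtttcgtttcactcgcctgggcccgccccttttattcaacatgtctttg
Ifi27: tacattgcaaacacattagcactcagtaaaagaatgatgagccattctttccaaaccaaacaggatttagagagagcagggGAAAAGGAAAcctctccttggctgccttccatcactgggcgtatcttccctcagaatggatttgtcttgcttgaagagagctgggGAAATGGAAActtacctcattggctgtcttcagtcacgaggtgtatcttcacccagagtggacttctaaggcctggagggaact
Bst2: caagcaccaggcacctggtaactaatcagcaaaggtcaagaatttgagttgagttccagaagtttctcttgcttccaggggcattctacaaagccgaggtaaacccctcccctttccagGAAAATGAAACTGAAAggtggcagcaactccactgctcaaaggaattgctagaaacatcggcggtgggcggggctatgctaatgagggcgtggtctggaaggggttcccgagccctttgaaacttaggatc
Bst2 held 2 overlapping matches, from 131 bases before the start, and Ifi27 held 2, at 169 and 84 bases.

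**Figure D4:**
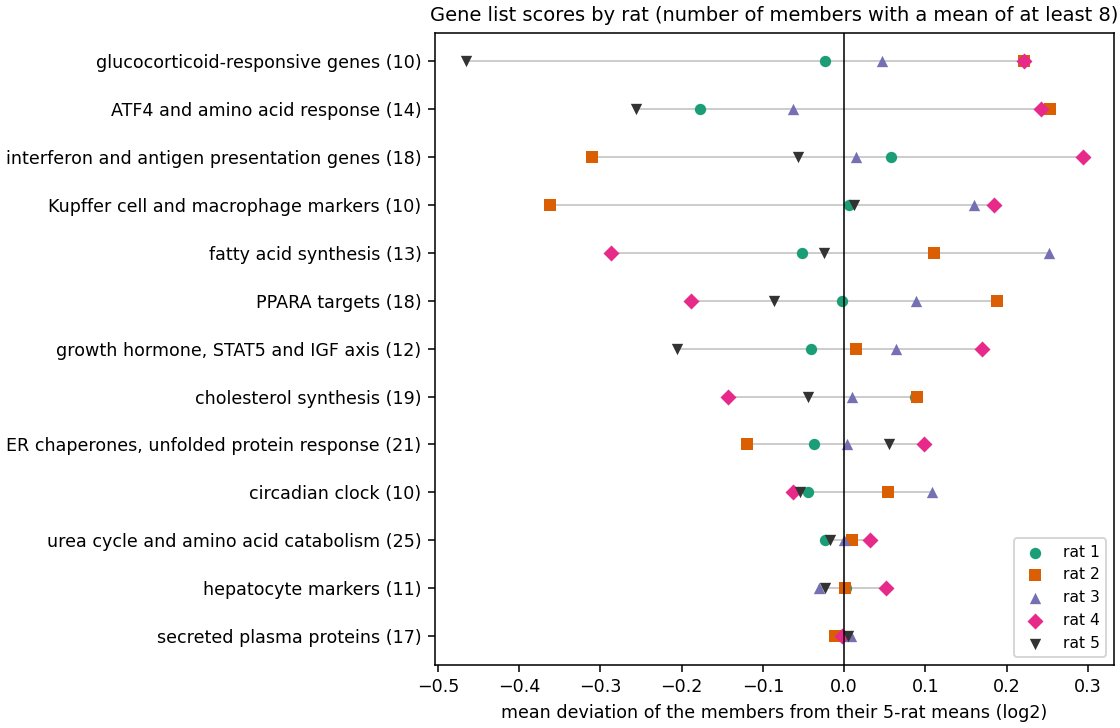
Mean deviation of list members from their own 5-rat means (log2, x axis) for 13 gene lists in each of 5 vehicle rats, with the number of members that had a mean of at least 8 in brackets. Each symbol is 1 rat and the grey line joins the lowest and the highest, from a spread of 0.69 for glucocorticoid-responsive genes to 0.02 for secreted plasma proteins.

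The list of conjugation enzymes, not drawn in the plot of list scores, had a wider spread of 0.77 and holds Ugt2b, at 5.36 in rat 1. Scores of the groups below differed by less. Of 37 cytosolic ribosomal proteins with a mean of at least 8, rat 1 was the lowest rat in 33, against 20.1% of all genes, and the mean deviation spanned 0.12, from -0.08 in rat 1 to 0.04 in rat 4. Of 48 subunits of oxidative phosphorylation, rat 4 was the lowest in 29, against 29.9% of all genes. Of 21 genes of endoplasmic reticulum chaperones and the unfolded protein response, rat 5 was the highest in 11 and rat 2 the lowest in 10, against 18.4% and 16.8% of all genes. Circadian genes did not share a highest or lowest rat. Of the 10 with a mean of at least 8, 5 had an SD of at least 0.230, against 596 of all 5951 genes. The median SD of the 10 was 0.21. The clock-controlled Dbp was at 5.99, Nr1d1 at 5.88 and Npas2 at 8.95. Bhlhe40, a clock repressor, was 8.35, 8.16, 9.07, 8.01 and 8.59 (SD 0.42), while Usp2, a deubiquitinase on the list, had an SD of 0.53. Immediate early genes included Fos at 5.98 ± 0.09 and Egr1 at 10.66 ± 0.49, and Egr1 was highest in rat 2 at 11.41. The chemokine Cxcl1 was 10.78, 11.43, 11.63, 12.53 and 11.46 (SD 0.63, and 0.38 without rat 4). Of the acute phase genes, A2m ranged from 9.66 to 10.99 and Lbp from 8.74 to 10.04, while Hp stayed between 14.69 and 14.77.

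Among the 80 genes with an SD of at least 0.5, rat 4 was the highest rat in 44 (55%) and rat 3 the lowest in 28 (35%), against 20.1% and 10.2% of all 5951 genes. A set of 24 had rat 3 lowest and rat 4 or 5 highest, a set described after its values were seen. Among them were regulators of transcription, signalling and RNA: Nfia and Nfib, factors of the nuclear factor I family, Elk4, an ETS factor, Stat3, which carries interleukin-6 signals, Arid1a, of chromatin remodelling, Khsrp and Srrm2, RNA-binding and splicing proteins, and Eif4ebp2, a repressor of translation. Nfia was 11.06, 10.93, 9.56, 11.36 and 11.60 in rats 1 to 5 (SD 0.79, and 0.30 without rat 3). Eif4ebp2 was 9.39, 9.20, 7.85, 9.82 and 9.98 (SD 0.84, and 0.37 without rat 3), and Palld, an actin-associated protein, was 8.21, 8.22, 6.57, 8.95 and 8.70 (SD 0.93, and 0.37 without rat 3). Sv2b, a vesicle glycoprotein, was 8.73, 8.34, 7.02, 9.73 and 8.72 (SD 0.98, and 0.59 without rat 3).

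Another probe set with a mean of at least 8 was measured for 6 of these 24 genes, and it differed less. The median SD of the other probe sets was 0.25 against 0.53, and 0 of 6 reached 0.5. The 24 genes were picked by the SD of the chosen probe set, so a smaller SD in the other can come from that choice alone. In the other probe set rat 3 stayed the lowest rat in 2 of the 6, and the highest rat was the same in 5 of the 6. Stat3 had 9.79, 9.73, 8.97, 10.55 and 10.10 in the chosen probe set (SD 0.58, and 0.38 without rat 3) and 9.18, 9.23, 9.44, 9.60 and 9.25 in the other (SD 0.18), in which rat 3 was not low. Nfib kept its order better, with an SD of 0.54 and 0.42 and rat 3 lowest and rat 5 highest in both. Of the 8 other variable genes with another probe set, 3 reached an SD of 0.5 in it, and its median SD was 0.47 against 0.66. Over all 712 genes with another probe set of this level, the highest rat was the same in 39.5% and the lowest in 40.4%. The median SD over the 712 was 0.146 in the other probe set, against 0.121 in the chosen one.

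The opposite case was measured too. In 12 genes the chosen probe set had an SD of 0.08 to 0.23 while the other probe set had one of 0.51 to 1.05, and in 10 of these 12 rat 3 was the lowest rat in the other probe set, against 13.9% of all 712. Sppl2a, an intramembrane protease, had an SD of 0.10 in the chosen probe set and 10.04, 9.40, 8.09, 10.86 and 10.26 in the other (SD 1.05). Zbtb20, a repressor of transcription, had 0.23 and then 8.82, 8.36, 6.98, 9.46 and 9.25 (SD 0.99). These genes were named after their values were seen. The low signal of rat 3 was found in some probe sets of a gene and not in others. The GAPDH 3′ minus 5′ difference was 1.56 in rat 3, 1.55 in rat 2, 1.35 in rat 4, 1.28 in rat 1 and 1.13 in rat 5. That of actin put rat 3 near the low end, at 2.35, 2.90, 2.35, 2.61 and 2.29 in rats 1 to 5, and the part of RNA integrity in this pattern was not tested.

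**Figure D5:**
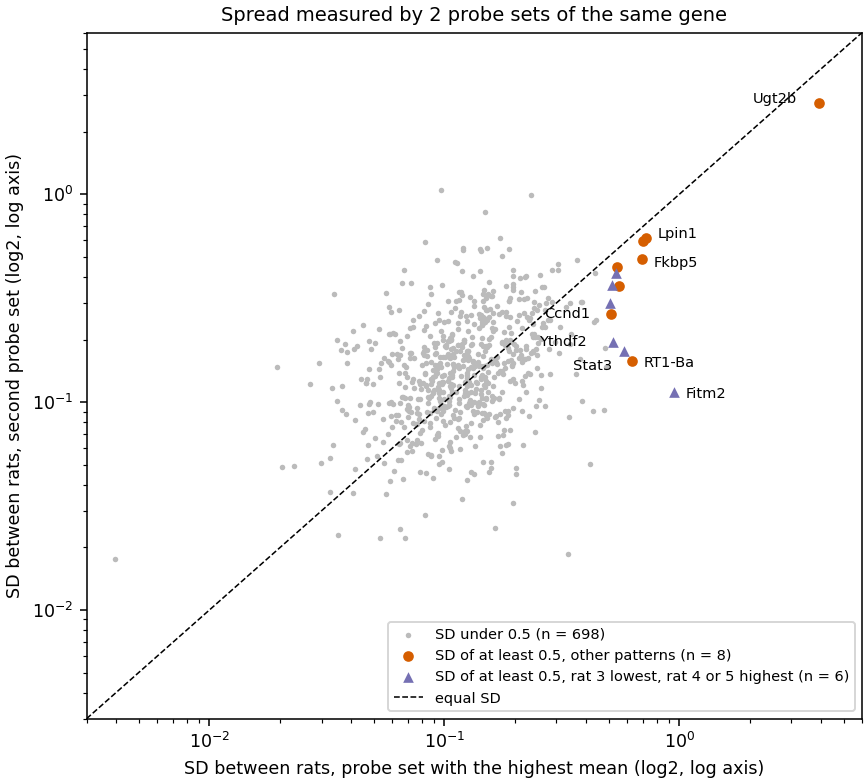
SD between the 5 vehicle rats in the other probe set (y axis) against that in the probe set with the highest mean (x axis), both in log2 units on log axes, for 712 genes with 2 such probe sets. The dashed line marks equal SD; Ugt2b, Lpin1 and Fkbp5 lie near it, and the triangles, genes with rat 3 lowest and rat 4 or 5 highest, lie under it.

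The remaining genes of the 40 most variable were of mixed function. Prlr, the prolactin receptor, was 8.002, 7.66, 8.81, 8.23 and 9.85 in rats 1 to 5 (SD 0.86, and 0.49 without rat 5). Clic2, a chloride channel family protein, was 8.71, 10.16, 10.42, 10.76 and 10.73 (SD 0.84), with rat 1 alone low, and 0.28 without rat 1. Trim25, a ubiquitin ligase of antiviral sensing, was 11.09, 9.40, 8.84, 9.66 and 9.67 (SD 0.83), with rat 1 alone high, and 0.39 without rat 1. Nampt, which makes a precursor of NAD, was 8.40, 8.60, 9.96, 8.94 and 8.53 (SD 0.63), high in rat 3, and 0.23 without rat 3. Ncald, a calcium sensor, was 7.04 in rat 1 and 8.04 to 9.10 in the others (SD 0.82, and 0.52 without rat 1). Onecut1, a factor of hepatocyte identity also known as HNF6, was 9.34, 8.96, 10.04, 10.05 and 8.67 (SD 0.62). RT1-Ba, a class II histocompatibility chain, was 10.41, 10.88, 9.92, 10.98 and 9.51, and its other probe set, with an SD of 0.16, had another highest and lowest rat. Genes of this locus are polymorphic, and a probe set need not bind each allele equally. Pxmp4, P2ry2, Gnai2 and Tent5a had SDs of 0.70, 0.76, 0.70 and 0.62, and the last was 0.39 without rat 5.

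Of the 40 genes, 23 had an SD that changed by over 1.5 times when 1 rat was left out: 4 for rat 1, 2 for rat 2, 8 for rat 3, 6 for rat 4 and 3 for rat 5. Elk4 was among them, with 0.64, and 0.41 without rat 3. Such a change was also found in 10 of the 20 genes with the lowest SD. The share over all 5951 genes was not counted, so the 23 are not read as a trait of variable genes. None of the 40 had a mean of 13 or more. Of all 5951 genes, 325 (5.46%) had 1 rat apart from the other 4 by Dixon's criterion for the gap to the nearest rat, which chance gives in about 5% of groups of 5.

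The least variable genes fell into 2 kinds. Of the 20 lowest SDs, 11 belonged to genes with a mean of at least 13, and 9 of the 20 were also among the 30 highest means. They included Alb (0.004), Ahsg (0.007), Rps29 (0.015), Ttr (0.016), Ambp (0.016) and Apoh (0.016). The other 9 lay between 8.11 and 10.70 . Il1rap, an accessory receptor chain of interleukin-1, was 10.02, 10.05, 10.02, 10.01 and 10.01 in rats 1 to 5 (SD 0.016). Emc8, of the membrane protein insertion complex, was 8.92, 8.88, 8.90, 8.90 and 8.92 (SD 0.016), and Mecr, of mitochondrial fatty acid synthesis, was 8.76, 8.75, 8.76, 8.79 and 8.74 (SD 0.018). Apeh, a peptidase, Slc25a46, a mitochondrial outer membrane protein, and Med18, of the Mediator complex, had SDs of 0.018, 0.018 and 0.019. Trir, Fbxw11 and Mrpl46 followed, at 0.019, 0.020 and 0.021. Leaving out 1 rat changed the SD by over 1.5 times in 10 of the 20 genes, among them Il1rap (0.0075 without rat 2), Mecr (0.0086 without rat 4), Apeh (0.0086 without rat 5), Rps29 (0.0076 without rat 4), Ttr (0.0085 without rat 1) and Ambp (0.0083 without rat 3), and likewise Apoc3 (0.0065 without rat 3), Trir (0.012 without rat 3), C3 (0.014 without rat 2) and Mrpl46 (0.012 without rat 2). Across the 20 genes the range between the rats was at most 1.04-fold.

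Genes often used as a reference differed in steadiness. Of 14 with a mean of at least 8 the median SD was 0.10. Pgk1, a glycolytic kinase, had the lowest, 0.020, with 13.05, 13.03, 13.003, 12.997 and 13.02 in rats 1 to 5. Rplp0, a ribosomal protein (0.043), and Polr2a, a subunit of RNA polymerase II (0.064), were also steady. Tfrc, the transferrin receptor, had the highest, 0.29, with 10.55, 10.51, 10.27, 11.08 and 10.60, and Sdha, a respiratory chain subunit, had 0.20 with 11.15 in rat 4. Hprt1, of purine salvage, had 0.15. Of these reference genes rat 4 was the lowest rat in 8 of 14, against 29.9% of all genes.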

How the data were processed

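Liver RNA of 17 rats was measured on Affymetrix Rat Genome 230 2.0 arrays, and the 5 vehicle arrays were used. The deposited values are log2 signals, made by the authors with RMA per the submitters' processing notes. RMA corrects background, quantile-normalizes the arrays and summarizes probes, so it makes the distributions of the arrays alike. Its software, the set of arrays normalized together, scan dates and slides: not given in the sources used here.

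Of 31099 probe sets, 57 controls were left out of the ranking, 20826 had 1 gene symbol, 436 had several and 9780 had none. This left 14217 genes, and where several probe sets measured a gene the brightest by mean stood for it. The SD over 5 rats (n - 1) was ranked among genes with a mean of at least 8. Named genes were the 30 highest means, the 40 highest and 20 lowest SDs, the 3 genes on each side of a limit and members of the lists. Members and lists were chosen with earlier results of these data known. A list's score is the mean deviation of its members with a mean of at least 8 from their own 5-rat means. Promoter sequences came from RefSeq (GRCr8) and were found for 11733 of 14217 genes, matched by symbol or gene ID. Every motif was searched in every promoter set, and not all of these results are given. No test was run, since there was 1 group. Alternatives were another choice of probe set, scaling, floor, level or spread measure, and leaving out each rat. Calculations used Python 3.11.15, NumPy 2.4.6, pandas 2.3.3, SciPy 1.17.1 and matplotlib 3.10.9. The ranking code was also run on simulated data. Its variable genes were given a larger SD than most of the 40 genes had, and means well above the floor. That run checks the code and not the ranking of these rats. The number of arrays limits the precision.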

Additional observations from a re-analysis of the deposited data

Results flagged for a closer look

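In 8 of 219 values checked 1 rat stood apart from the other 4, by a gap to the nearest rat that was large against the whole range (Dixon's criterion for 5 values). Chance gives such a gap in about 5% of groups of 5, and it was found in 5.46% of the 5951 genes with a mean of at least 8.

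For Ugt2b the gap was 0.944 of the range, with rat 1 at 5.36 and the others from 13.87 to 14.38. Cdh17 had a gap of 0.758, with rat 3 at 7.16 and the others from 9.91 to 10.80. COX1 had a gap of 0.814, with rat 4 at 14.18 and the others from 14.53 to 14.61. Rat 2 was the low rat in the macrophage marker Cd68 (gap 0.819, 8.91 against 9.53 to 9.66) and in the immunoproteasome subunit Psmb8 (gap 0.744, 9.34 against 10.25 to 10.56). Tob2, an antiproliferative protein just outside an SD of 0.5, had rat 4 high, at 10.22 against 9.04 to 9.22, with a gap of 0.847. Ubxn1 and Thap3, both from the least variable genes with a mean under 13, had gaps of 0.822 and 0.896 over narrow ranges: Ubxn1 was 10.54 in rat 4 and 10.49 to 10.50 in the others, and Thap3 was 9.41 in rat 3 and 9.46 to 9.47 in the others. The causes of these differences were not tested.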

How the results depend on the processing

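Of the 30 genes with the highest mean, 22 were kept with the mean over the probe sets of a gene. All 30 were kept under every other alternative, also without any 1 rat, but another floor or spread measure cannot change this ranking. The mean over probe sets gave 4726 genes above the floor and 54 with an SD of at least 0.5. It kept 28 of the 40 genes with the highest SD. A floor of 9 in place of 8 gave 3729 genes above it and 52 with an SD of at least 0.5, against 5951 and 80. The scaled median absolute deviation in place of the SD gave a median of 0.0944. Of the 40 genes with the highest SD, 26 were kept with a floor of 7, 26 with a floor of 9 and 25 with the median absolute deviation. Of the 20 with the lowest SD, 13 were kept with each array centred on its median, 7 with repeated quantile normalization, 13 with a floor of 7 and 1 with the median absolute deviation. Of those 20, 11 were kept with the SD relative to genes of like mean and 9 with means under 13 only, both alternatives chosen after seeing the data. Leaving out each rat in turn gave 5917 to 5969 genes above the floor, a median SD of 0.105 to 0.118, 64 to 97 genes with an SD of at least 0.5 and 4 to 10 with an SD of at least 1. It kept 29 to 33 of the 40 most variable genes and 4 to 8 of the 20 least variable ones. The causes were not tested. No paired analysis was possible because there was 1 group and no test. With 5 rats, the order of neighbouring SDs is not resolved, and signals near the floor may hold background.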

Other observations

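Some genes with a mean under 8 differed widely, and they were named after their values were seen. A range of at least 2 log2 units, or 4-fold, was found in 27 genes, 17 of them with a mean of at least 8 and 10 with a lower mean. RT1-Bb, a class II histocompatibility chain, was 7.79, 4.56, 8.71, 5.39 and 8.66 in rats 1 to 5 (SD 1.93), so that rats 2 and 4 were low. The class II chain RT1-Ba was highest in those rats in its chosen probe set, at 10.88 and 10.98. The other probe set of RT1-Ba had a smaller SD and another highest and lowest rat. Akr1b7, an aldo-keto reductase that predominates in female liver, was 4.65, 4.48, 4.94, 5.55 and 8.59 (SD 1.70), with rat 5 alone high, whereas Cyp2c12, of the same list, was lowest in rat 5 at 10.82 and highest in rat 2 at 12.46. Krt10, a keratin of the epidermis, was highest in rat 2 at 9.61 and lowest in rat 4 at 6.98. Itga1, an integrin chain, was 7.91 in rat 5 and 5.41 to 6.12 in the others. Lox, which cross-links collagen, ran from 6.44 in rat 2 to 8.56 in rat 5.

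Probe sets without a gene symbol held further variable signals. Of 944 with a mean of at least 8, 24 had an SD of at least 0.5 and 2 had an SD of at least 1. Among the 5951 genes, 80 (1.34%) and 6 (0.101%) did. The median SD of the 944 was 0.133, against 0.115 for the genes. Of the 2 probe sets, the one with the lower SD was 11.15, 9.24, 10.31, 8.79 and 8.26 in rats 1 to 5. The other was 9.66, 8.85, 6.66, 9.35 and 10.48, with rat 3 lowest.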
